A study of Mus musculus with 15 samples.

Results

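The collagen gene family was described in sorted lymphatic endothelial cells of 3 sources: transplanted mouse melanomas (Tumor), tumor-draining lymph nodes (TdLN) and lymph nodes away from the tumor's drainage (NdLN). The members were all protein-coding genes whose symbol is Col, a number, a and a number. They came to 44 genes of 21839 in the count table, which is every such gene of the annotation used. All mice were C57bl/6 and aged 10 weeks, and the submitters describe the melanoma as lymphangiogenic. The labels give no genotype, allele or drug, and do not say whether a library holds 1 animal or a pool. Each group had 5 libraries, made from cells sorted as negative for CD45 and positive for CD31 and gp38, the products of Pecam1 and Pdpn. The same sort was used for tumors and nodes. Total counts ranged from 23830337 in Tumor 1 to 37437282 in NdLN 2. Lymphatic marker genes, such as Prox1 and Lyve1, were detected in every group, and both were lower in Tumor than in TdLN libraries. In all Tumor libraries, however, pigment cell genes summed to more than the lymphatic genes (24375 to 40008 CPM against 3533 to 4874 CPM; CPM are counts scaled to a common library size by edgeR's cpm function with TMM factors), so that the Tumor libraries also held RNA with pigment cell markers.

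Collagens are proteins of the extracellular matrix built from helical chains that wind together. Fibrillar collagens (types I, II, III, V, XI, XXIV and XXVII) form the rope-like fibrils of connective tissue. Type IV collagen forms the sheet-like network of basement membranes, the thin layer on which endothelium rests, and types XV and XVIII lie in or beside that layer. Lymphatic capillaries are known for a sparse and discontinuous basement membrane. In lymph nodes, fibrils of types I and III run in a reticular network. The remaining members attach to fibrils (the FACIT collagens), form beaded filaments (type VI), form short-chain networks (types VIII and X) or span the cell membrane.

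The contrast between fibrillar and basement membrane collagens was large between tumor and node libraries. The 11 fibrillar genes together had 1029, 6339, 3881, 2735 and 9784 CPM in Tumor libraries. The same sum was 69.0, 98.8, 184.4, 134 and 184.7 CPM in TdLN libraries and 79.7, 193, 175, 218 and 226 CPM in NdLN libraries. Every Tumor library was above every node library. The 8 basement membrane genes together had 613, 2520, 2081, 2180 and 2142 CPM in Tumor libraries, 3263, 2275, 2417, 1556 and 2346 CPM in TdLN libraries and 2411, 2338, 1905, 2249 and 2272 CPM in NdLN libraries. These sums overlapped between the groups, and Tumor 1 stood below all other libraries. The ratio of the fibrillar to the basement membrane sum was 1.68, 2.52, 1.87, 1.25 and 4.57 in Tumor libraries, 0.0212 to 0.0862 in TdLN libraries and 0.0331 to 0.0995 in NdLN libraries.

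Levels per length were used to compare genes with each other. Per kilobase of exon, Col3a1 (215 ± 159 CPM per kb, SD, n = 5) and Col1a1 (178 ± 135) led in Tumor libraries, followed by Col4a1 (100.4 ± 40.8) and Col18a1 (94.0 ± 39.0). In TdLN libraries Col4a1 (161 ± 46.0 CPM per kb), Col4a2 (93.0 ± 33.8) and Col18a1 (63.7 ± 11.7) led. The NdLN libraries had the same leading genes, Col4a1 (129 ± 11.5 CPM per kb), Col18a1 (91.4 ± 16.5) and Col4a2 (70.8 ± 9.26). Neighbours in the Tumor order differed by less than the larger of their SDs. In TdLN libraries Col4a1 exceeded Col4a2 by more than either SD, while Col4a2 and Col18a1 differed by less than the larger SD. In NdLN libraries both steps exceeded the SDs, although the libraries of neighbouring genes still overlapped. With the longest coding transcript as length, Col3a1 again led in Tumor libraries and Col4a1 in both node groups, but in Tumor libraries Col1a2 (214 CPM per kb) then stood above Col1a1 (197) and Col18a1 (118) above Col4a1 (113). Collagens took 0.194% of all counts in Tumor 1, 0.562% to 1.34% in the other Tumor libraries, 0.210% to 0.363% in TdLN libraries and 0.260% to 0.307% in NdLN libraries.

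**Figure D1:**
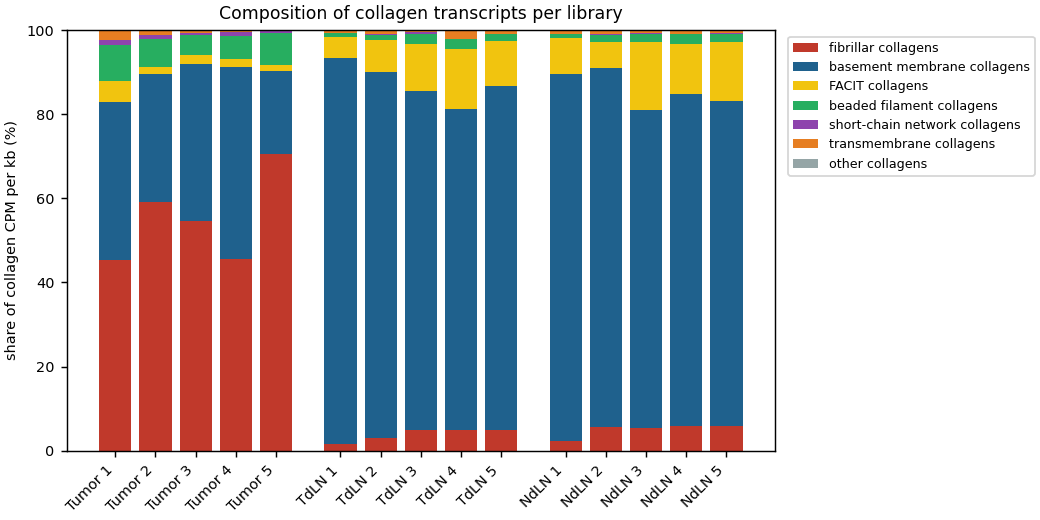
Share of each collagen class in the collagen CPM per kb of each library (%, y axis), for the 5 Tumor, 5 TdLN and 5 NdLN libraries (x axis). Fibrillar collagens took 45.4% to 70.6% in Tumor libraries, 1.51% to 5.02% in TdLN libraries and 2.31% to 5.93% in NdLN libraries, and basement membrane collagens took 19.8% to 45.7% in Tumor libraries, 76.2% to 91.8% in TdLN libraries and 75.8% to 87.3% in NdLN libraries.

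Of the 44 genes, 39 passed the filter on low counts and were tested; Col10a1, Col19a1, Col20a1, Col25a1 and Col6a5 did not pass and stayed at or below 1.04 CPM in every library. A gene high in a single group could pass through that group alone. In Tumor against TdLN 19 of the 39 rose, 11 fell and 9 did not pass the test, beside a background of 62% of 13887 tested genes called (31.9% higher, 30.1% lower). In Tumor against NdLN 18 rose, 12 fell and 9 did not pass, beside 66.5% of all genes (34% higher, 32.5% lower). Both backgrounds already cover most genes, so the number of collagens called says little by itself. In TdLN against NdLN 0 of 39 were called, beside 3.49% of all genes (1.84% higher, 1.64% lower). The comparisons share libraries and are not independent. In bulk libraries, fewer cells of a type and less RNA per cell cannot be told apart.

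**Figure D2:**
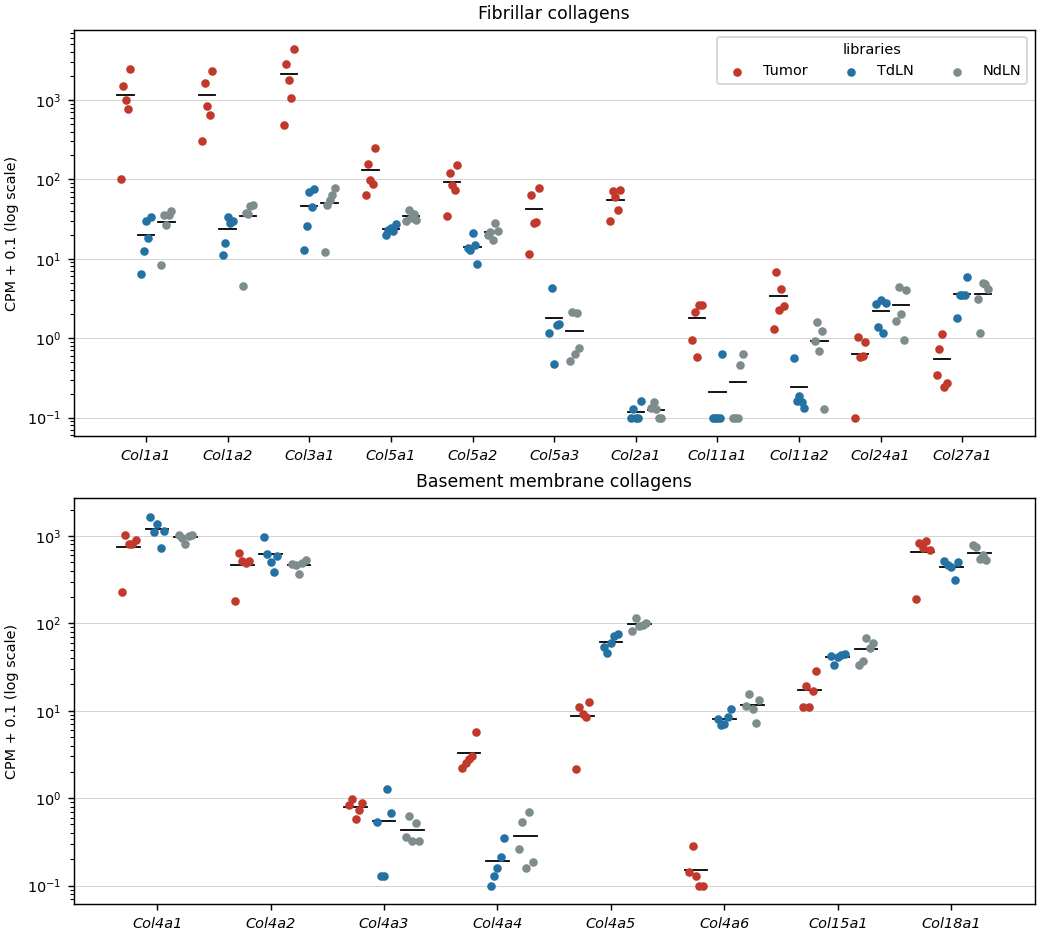
CPM plus 0.1 (log scale, y axis) of the fibrillar (top) and basement membrane collagen genes (bottom) in each library; points are libraries, black lines are means of 5. Col1a1, Col1a2 and Col3a1 lie at 100.9 CPM or more in every Tumor library and at 77.0 CPM or less in every node library, while Col4a1, Col4a2 and Col18a1 overlap between Tumor and TdLN libraries.

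The major fibrillar genes were the most abundant of their class and rose in Tumor libraries. Col1a1 (ENSMUSG00000001506, chromosome 11 from 94936224 to 94953042, plus strand) encodes the alpha 1 chain of type I collagen, the main fibril protein of skin, bone and scar. It was at 101, 1486, 991, 780.0 and 2478 CPM in Tumor libraries, 6.32, 12.4, 30.1, 17.9 and 33.2 CPM in TdLN libraries and 8.13, 35.6, 26.6, 35.7 and 40.2 CPM in NdLN libraries. No Tumor library overlapped a node library, although Tumor 1 was far below the other 4. The log2 fold change of Col1a1 against TdLN was 5.87 ± 0.77 (± SE; adjusted p = 9.55e-06), and against NdLN it was 5.32 ± 0.75 (adjusted p = 1.58e-05). Col1a2 (ENSMUSG00000029661, chromosome 6 from 4504814 to 4541544, plus strand), the partner chain of type I, was at 302, 1613, 847, 647 and 2325 CPM in Tumor libraries. In TdLN libraries it was at 10.9, 15.9, 33.6, 28.3 and 29.8 CPM and in NdLN libraries at 4.43, 38.0, 36.4, 46.2 and 47.0 CPM, and again the groups did not overlap. NdLN 1 was well below the other NdLN libraries. The change of Col1a2 was 5.60 ± 0.69 (adjusted p = 4.79e-06) against TdLN and 5.06 ± 0.67 (adjusted p = 8.27e-06) against NdLN. The ratio of Col1a1 to Col1a2 CPM was 0.335 in Tumor 1 and 0.921 to 1.21 in the other Tumor libraries, 0.579 to 1.11 in TdLN libraries and 0.731 to 1.83 in NdLN libraries.

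Col3a1 (ENSMUSG00000026043, chromosome 1 from 45311538 to 45349706, plus strand), the chain of type III collagen found in reticular fibres and vessel walls, was at 484, 2821, 1768, 1071 and 4424 CPM in Tumor libraries. Its levels were 12.6, 26.0, 68.7, 45.02 and 75.2 CPM in TdLN libraries and 12.0, 47.8, 54.4, 62.8 and 77.0 CPM in NdLN libraries. All Tumor libraries were above all node libraries, by a log2 fold change of 5.54 ± 0.71 (adjusted p = 7.40e-06) against TdLN and 5.38 ± 0.70 (adjusted p = 7.44e-06) against NdLN. As an example of the regulatory sequence of these genes, the windows from 250 bases before to 50 bases after the RefSeq start of Col1a2 (GRCm38.p6, chr6:4505368-4505667, plus strand) and Col3a1 (chr1:45311288-45311587, plus strand) are printed 5′ to 3′, with CCAAT or TATAAA on either strand in capitals.
Col1a2: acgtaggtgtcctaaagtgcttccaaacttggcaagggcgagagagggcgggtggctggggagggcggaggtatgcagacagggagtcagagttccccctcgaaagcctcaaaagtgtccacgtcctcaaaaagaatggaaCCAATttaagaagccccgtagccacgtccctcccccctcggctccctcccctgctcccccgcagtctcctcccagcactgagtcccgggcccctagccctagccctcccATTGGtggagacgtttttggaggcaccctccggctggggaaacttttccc
Col3a1: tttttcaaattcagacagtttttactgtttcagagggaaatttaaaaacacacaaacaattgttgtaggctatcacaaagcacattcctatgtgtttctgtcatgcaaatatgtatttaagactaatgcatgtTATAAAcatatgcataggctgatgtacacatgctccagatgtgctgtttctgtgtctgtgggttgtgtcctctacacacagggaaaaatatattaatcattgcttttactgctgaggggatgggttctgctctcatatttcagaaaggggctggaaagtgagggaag
The Col1a2 window held CCAAT and its reverse complement, and the Col3a1 window held TATAAA. Windows were found for 35 of the 44 genes (38 windows). CCAAT was in 34.2% of collagen windows and 37.4% of all 32851 windows, the GC box motif GGGCGG in 60.5% and 35.7%, and TATAAA in 13.2% and 13.6%, each searched on both strands.

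Type V collagen, which co-assembles with type I and limits the width of its fibrils, also rose. Col5a1 was at 64.0, 155, 97.5, 87.3 and 249.99 CPM in Tumor libraries, 19.8, 22.8, 24.5, 22.3 and 27.5 CPM in TdLN libraries and 29.4, 41.1, 32.4, 36.3 and 30.6 CPM in NdLN libraries. Tumor libraries lay above all node libraries (log2 fold change 2.48 ± 0.29, adjusted p = 3.42e-06 against TdLN and 1.94 ± 0.29, adjusted p = 2.63e-05 against NdLN). Col5a2, its partner chain, which lies tail to tail with Col3a1 on chromosome 1 with 24614 bases between them, was at 34.7, 119, 85.2, 74.2 and 151 CPM in Tumor libraries. In TdLN libraries it was at 13.6, 12.7, 20.7, 14.8 and 8.48 CPM and in NdLN libraries at 19.9, 21.4, 17.1, 27.8 and 22.0 CPM, without overlap with Tumor (log2 fold changes 2.72 ± 0.33 and 2.10 ± 0.32). The third type V chain, Col5a3, was nearly silent in nodes, at 1.07, 4.14, 0.374, 1.38 and 1.42 CPM in TdLN libraries and 0.414, 2.06, 0.537, 1.99 and 0.649 CPM in NdLN libraries, against 11.2, 64.0, 27.8, 28.9 and 77.5 CPM in Tumor libraries. Its change was 4.64 ± 0.70 (adjusted p = 4.03e-05; 5.29 without TdLN 2) against TdLN and 5.21 ± 0.73 (adjusted p = 1.46e-05) against NdLN.

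Col2a1, Col9a1 and Col9a3 were found in every Tumor library, and Col2a1 and Col9a1 were close to absent from the nodes. Col2a1 (ENSMUSG00000022483, chromosome 15 from 97975602 to 98004695, minus strand), the chain of type II collagen, the main fibril of cartilage, was at 29.4, 71.0, 60.01, 40.4 and 73.2 CPM in Tumor libraries, with 9496 counts in all. The 5 TdLN libraries held 3 counts in all and the NdLN libraries 4. The ratio of Tumor to TdLN, scaled by library size, was 3220, with a 95% counting interval of 1101 to 15616. The fitted log2 fold change of Col2a1 against TdLN was 11.32, and 12.28 without TdLN 5. Col9a1 (ENSMUSG00000026147, chromosome 1 from 24177610 to 24252684, plus strand), a chain of type IX collagen, the FACIT collagen that covers type II fibrils, was at 21.1, 21.3, 21.4, 24.4 and 24.1 CPM in Tumor libraries (3768 counts), against 1 count in all TdLN libraries, in TdLN 4, and 1 count in all NdLN libraries, in NdLN 3. The ratios therefore each rest on 1 count in 1 node library, and were 3833 (interval 688 to 151433) and 3767 (interval 676 to 148814). Such intervals cover counting error only. The fitted log2 fold changes of Col9a1 were 11.20 against TdLN and 11.18 against NdLN, and both were 12.55 without the node library that held the count. Col9a3 was at 3.93, 5.12, 4.05, 4.25 and 3.42 CPM in Tumor libraries, 0, 0.0591, 0.115, 0 and 0.0633 CPM in TdLN libraries and 0, 0, 0, 0.130 and 0.254 CPM in NdLN libraries, and rose by 6.35 ± 1.007 (adjusted p = 5.99e-05; 6.95 without TdLN 3) against TdLN and 5.68 ± 0.96 against NdLN (6.90 without NdLN 5). Col9a2 rose as well (2.47 ± 0.78 and 3.45 ± 0.83) but stayed at 0.491 to 1.24 CPM in Tumor libraries. Of the exon bases of Col9a3, 6.07% also lie in exons of Tcfl5 on the other strand, and the kit does not mark strand; for the other tested collagens the share was at most 5.65%.

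Type XI collagen, which forms fibrils with type II, was low in all groups. Col11a1 was at 0.860, 2.02, 0.478, 2.53 and 2.49 CPM in Tumor libraries. In TdLN libraries it was at 0 except 0.538 CPM in TdLN 5, and in NdLN libraries at 0 except 0.358 CPM in NdLN 4 and 0.536 CPM in NdLN 5. Tumor 3 lay below TdLN 5 and NdLN 5. It rose against TdLN (3.95 ± 1.46, adjusted p = 0.0277), a call lost when TdLN 1, 2, 3 or 4 or Tumor 4 was left out, and did not pass against NdLN (3.20 ± 1.39, adjusted p = 0.0531). Without TdLN 5 the value against TdLN was 8.82, and the call against NdLN was made without NdLN 5 (4.20) or TdLN 5 (3.17), by limma voom (4.03), when those groups were fitted alone (3.17) and with a replicate block (4.75). Col11a2 was at 1.19, 6.80, 2.16, 4.11 and 2.41 CPM in Tumor libraries, 0.462, 0.0591, 0.0863, 0.0563 and 0.0316 CPM in TdLN libraries and 0.829, 1.48, 0.594, 1.14 and 0.0282 CPM in NdLN libraries. All Tumor libraries were above the TdLN libraries, while Tumor 1 was below NdLN 2. It rose against TdLN (4.54 ± 0.91, adjusted p = 0.000467; 5.74 without TdLN 1) and against NdLN (2.03 ± 0.79, adjusted p = 0.0334). The call against NdLN was lost without NdLN 1 (adjusted p = 0.0573), NdLN 3 (0.0668), Tumor 2 (0.105) or Tumor 4 (0.0587).

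The minor fibrillar genes went the other way. Col27a1, which encodes a fibrillar chain of developing cartilage, was at 0.246, 0.630, 1.04, 0.144 and 0.174 CPM in Tumor libraries, 1.67, 3.40, 3.37, 3.38 and 5.82 CPM in TdLN libraries and 3.03, 1.07, 4.86, 4.75 and 4.01 CPM in NdLN libraries. Every Tumor library was below every node library. It fell by 2.96 ± 0.58 against TdLN (adjusted p = 0.000403) and by 2.97 ± 0.58 against NdLN (adjusted p = 0.000339); without Tumor 3 the values were -3.55 and -3.56. Col24a1 was at 0, 0.918, 0.478, 0.489 and 0.782 CPM in Tumor libraries, 2.60, 1.30, 2.88, 1.07 and 2.69 CPM in TdLN libraries and 1.53, 4.35, 1.92, 0.847 and 3.89 CPM in NdLN libraries. It fell against TdLN (-1.96 ± 0.68, adjusted p = 0.0207) and against NdLN (-2.21 ± 0.69, adjusted p = 0.0101), although Tumor 2 at 0.918 CPM was above NdLN 4 at 0.847 CPM. In all, 9 of 11 fibrillar genes rose and 2 fell against TdLN (median log2 fold change 4.54, beside 0.04 over all tested genes), and 8 rose, 2 fell and 1 did not pass against NdLN (median 3.20, beside 0.04). Col2a1, Col11a1 and Col11a2, which had 3, 17 and 24 counts in all TdLN libraries, passed the filter on low counts through other groups. Without these 3 genes, 6 of 8 rose and 2 fell in both comparisons, with medians of 3.68 against TdLN and 3.58 against NdLN. The 2 that fell, Col27a1 and Col24a1, had 78 and 96 counts in all Tumor libraries and stayed in this count. Col27a1 met the filter through the node libraries, where it was high, and Col24a1 did not meet it through Tumor alone.

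**Figure D3:**
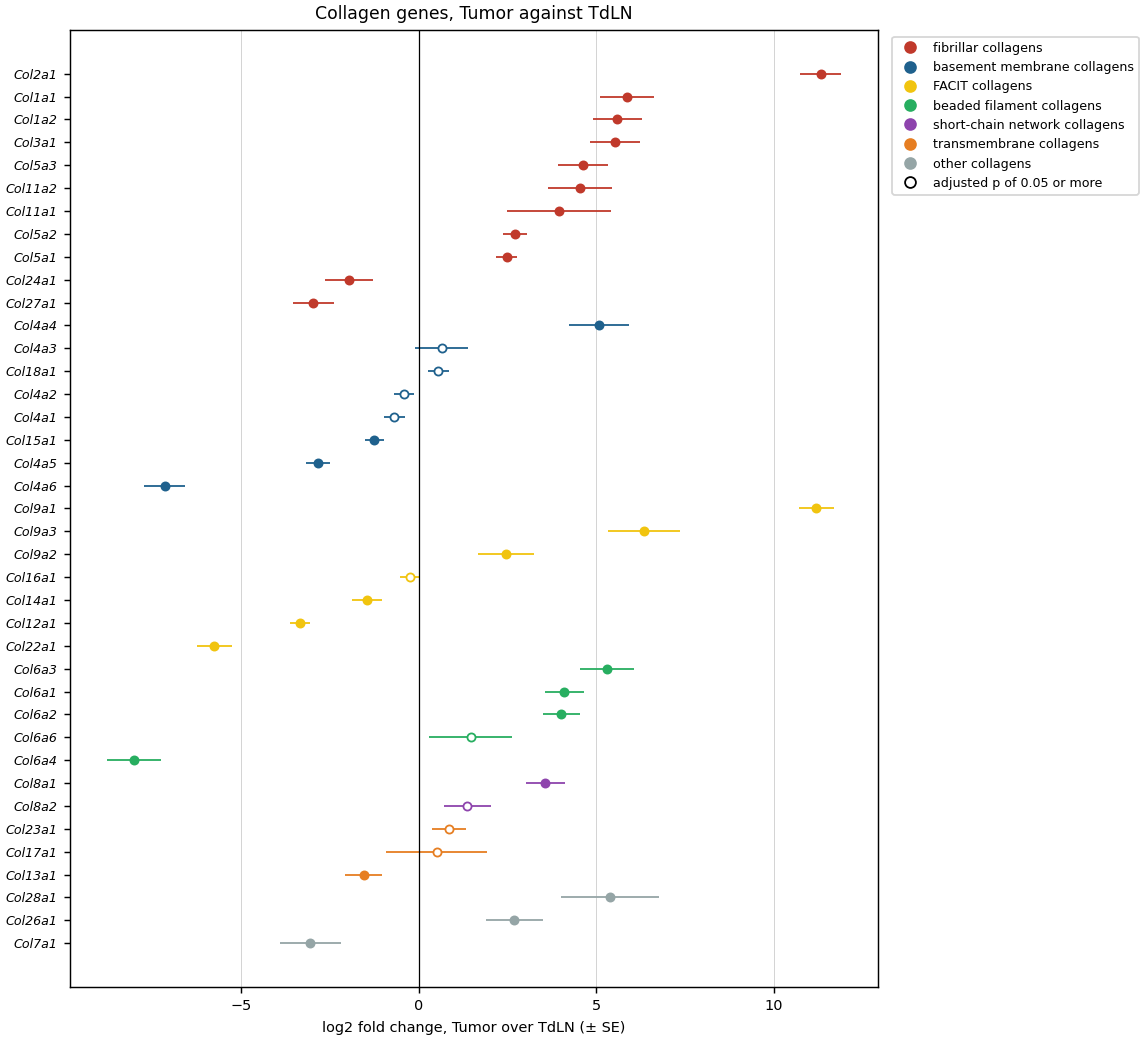
Log2 fold change of Tumor over TdLN (x axis, ± SE, edgeR) for the 39 tested collagen genes, grouped and coloured by class; open symbols have an adjusted p of 0.05 or more. Of the fibrillar genes 9 lie right of 0 and 2 left of it, and the basement membrane genes run from -7.14 (Col4a6) to 5.09 (Col4a4) with a median of -0.54.

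The basement membrane genes did not move as a block. Against TdLN 1 rose, 3 fell and 4 did not pass, and against NdLN the same numbers of genes, with the same names, did so. The share called was smaller than the 62% and 66.5% over all tested genes. Col4a4, which rose, had 15 counts in all TdLN and 43 in all NdLN libraries and met the filter on low counts through Tumor. Col4a6, with 9 counts in all Tumor libraries, met it through the nodes. The median log2 fold change of the class was -0.54 against TdLN and -0.18 against NdLN. The 3 abundant genes of the class were among those that did not pass. Col4a1 (ENSMUSG00000031502, chromosome 8 from 11198423 to 11312826, minus strand), a chain of the type IV network present in nearly all basement membranes, was at 231, 1029, 799, 801 and 889 CPM in Tumor libraries, 1662, 1107, 1364, 733 and 1128 CPM in TdLN libraries and 1019, 960.1, 818, 1004 and 1023 CPM in NdLN libraries. Apart from Tumor 1, the Tumor libraries overlapped both node groups. The difference was -0.68 ± 0.30 (adjusted p = 0.0589) against TdLN and -0.36 ± 0.30 (adjusted p = 0.289) against NdLN. The value against TdLN passed the test without Tumor 1 (-0.45, adjusted p = 0.0438), Tumor 2 (-0.85, adjusted p = 0.0322) or TdLN 4 (-0.82, adjusted p = 0.0279), and by DESeq2 (-0.68, adjusted p = 0.0404) or with upper quartile scaling (-0.74, adjusted p = 0.0438). Col4a2 (ENSMUSG00000031503, chromosome 8 from 11312805 to 11449287, plus strand), the chain that pairs with it, was at 179, 631, 521, 485 and 522 CPM in Tumor libraries, 984, 616, 505, 389 and 584 CPM in TdLN libraries and 484, 461, 371, 491 and 537 CPM in NdLN libraries. It did not pass against TdLN (-0.40 ± 0.28, adjusted p = 0.236) or against NdLN (adjusted p = 0.993).

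Col4a1 and Col4a2 lie head to head, overlapping by 22 exon bases on opposite strands. Their RefSeq promoter windows (GRCm38.p6, chr8:11312777-11313076, minus strand, for Col4a1 and chr8:11312555-11312854, plus strand, for Col4a2) share 78 bases, which are in capitals. They are shown because both genes start from this shared stretch.
Col4a1: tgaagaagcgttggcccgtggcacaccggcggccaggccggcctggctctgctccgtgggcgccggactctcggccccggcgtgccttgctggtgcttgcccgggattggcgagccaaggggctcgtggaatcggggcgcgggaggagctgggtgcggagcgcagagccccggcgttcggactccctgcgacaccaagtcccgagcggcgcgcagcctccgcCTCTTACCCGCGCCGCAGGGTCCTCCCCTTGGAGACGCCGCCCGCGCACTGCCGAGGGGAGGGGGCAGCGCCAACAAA
Col4a2: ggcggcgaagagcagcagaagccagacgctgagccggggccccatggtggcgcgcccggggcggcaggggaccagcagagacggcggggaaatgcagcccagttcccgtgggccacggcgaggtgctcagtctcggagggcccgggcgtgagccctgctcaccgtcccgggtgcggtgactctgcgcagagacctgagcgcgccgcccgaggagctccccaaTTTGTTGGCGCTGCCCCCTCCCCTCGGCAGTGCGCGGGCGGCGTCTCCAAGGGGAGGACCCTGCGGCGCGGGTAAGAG
The capitals of both lines are reverse complements of each other. The ratio of Col4a1 to Col4a2 CPM per kb was 1.15 to 1.51 in Tumor libraries, 1.497 to 2.397 in TdLN libraries and 1.69 to 1.96 in NdLN libraries. This ratio was lower in every Tumor library than in any NdLN library, while Tumor and TdLN libraries overlapped.

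The X-linked pair Col4a5 and Col4a6, chains of type IV networks of kidney, smooth muscle and epithelial basement membranes, fell in Tumor libraries. Col4a5 (ENSMUSG00000031274, chromosome X from 141475385 to 141689234, plus strand) was at 2.05, 10.97, 8.96, 8.36 and 12.4 CPM in Tumor libraries, 53.8, 46.1, 59.1, 71.9 and 74.6 CPM in TdLN libraries and 82.3, 114, 94.0, 95.6 and 101 CPM in NdLN libraries. The 3 groups did not overlap. The log2 fold change was -2.83 ± 0.33 (adjusted p = 3.10e-06) against TdLN and -3.50 ± 0.34 (adjusted p = 3.54e-07) against NdLN. Its ratio to Col4a1, in CPM per kb, was 0.00984 to 0.0155 in Tumor libraries, 0.0360 to 0.109 in TdLN libraries and 0.0897 to 0.132 in NdLN libraries. Col4a6 (ENSMUSG00000031273, chromosome X from 141165403 to 141474076, minus strand) was at 0.0410, 0.184, 0.0281, 0 and 0 CPM in Tumor libraries, 9 counts in all. It was at 7.88, 6.68, 6.88, 8.37 and 10.3 CPM in TdLN libraries and 11.1, 15.5, 10.5, 7.10 and 13.2 CPM in NdLN libraries. It fell by 7.14 ± 0.57 against TdLN (adjusted p = 5.09e-08) and by 7.66 ± 0.58 against NdLN (adjusted p = 2.16e-08); without Tumor 2 the values were -8.72 and -9.23. Both genes start head to head, 1308 bases apart, and their RefSeq windows (GRCm38.p6, chrX:141475169-141475468, plus strand, for Col4a5 and chrX:141474027-141474326, minus strand, for Col4a6) are 842 bases apart. They are shown with CCAAT or GGGCGG on either strand in capitals because both genes were among the called ones.
Col4a5: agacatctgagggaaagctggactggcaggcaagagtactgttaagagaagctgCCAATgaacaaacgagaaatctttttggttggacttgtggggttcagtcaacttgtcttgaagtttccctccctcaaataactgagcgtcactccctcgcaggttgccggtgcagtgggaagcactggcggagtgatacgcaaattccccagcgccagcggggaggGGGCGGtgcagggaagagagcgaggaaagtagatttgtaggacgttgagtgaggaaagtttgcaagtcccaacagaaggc
Col4a6: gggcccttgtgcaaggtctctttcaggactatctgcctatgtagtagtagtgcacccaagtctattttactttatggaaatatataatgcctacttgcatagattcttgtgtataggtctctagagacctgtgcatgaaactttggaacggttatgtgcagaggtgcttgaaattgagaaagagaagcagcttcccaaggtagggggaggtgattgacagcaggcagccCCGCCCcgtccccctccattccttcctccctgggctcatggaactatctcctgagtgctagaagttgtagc
The Col4a5 window held CCAAT and GGGCGG, and the Col4a6 window held the reverse complement of GGGCGG. Of the 8 windows of basement membrane collagens, 50% held CCAAT, 62.5% GGGCGG and 0 TATAAA, and of the 8 windows of fibrillar collagens 37.5% held CCAAT, 75% GGGCGG and 25% TATAAA.

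**Figure D4:**
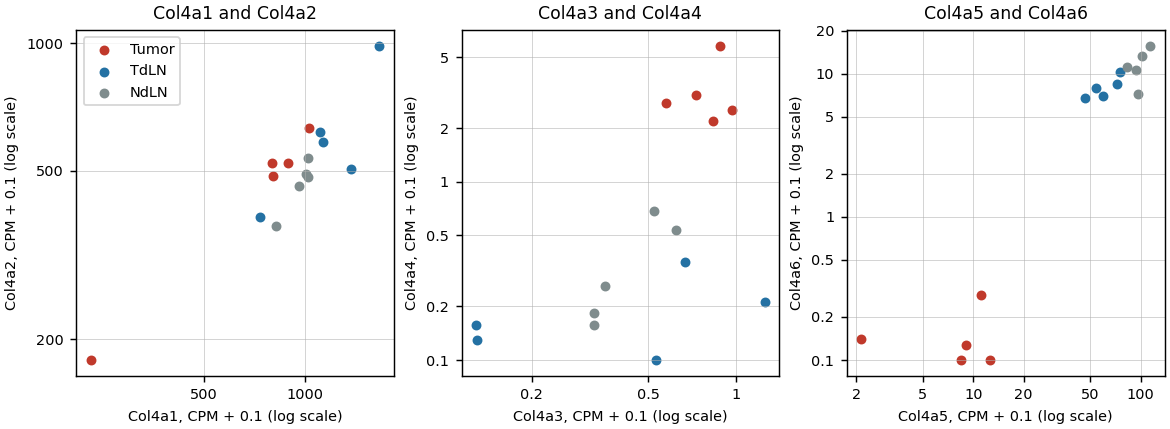
CPM plus 0.1 (log scale on both axes) of the head-to-head type IV pairs, 1 point per library and 1 panel per pair. Col4a1 and Col4a2 overlap between groups apart from Tumor 1 at the lower left, Col4a4 but not Col4a3 separates the Tumor libraries, and both Col4a5 and Col4a6 do so.

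The third head-to-head pair split. Col4a4, which lies 71 bases from Col4a3 on chromosome 1 and with it and Col4a5 forms the network of the kidney filter, was at 2.09, 2.41, 2.67, 2.96 and 5.68 CPM in Tumor libraries. It was at 0, 0.0295, 0.0576, 0.113 and 0.253 CPM in TdLN libraries and 0.159, 0.435, 0.0566, 0.586 and 0.0847 CPM in NdLN libraries, below every Tumor library. The rise was 5.09 ± 0.84 (adjusted p = 8.37e-05) against TdLN and 3.57 ± 0.76 (adjusted p = 0.000703) against NdLN; against TdLN it was 5.85 without TdLN 5. Col4a3 stayed at or below 1.16 CPM in every library, at 0.699 ± 0.150 CPM in Tumor libraries, 0.443 ± 0.465 in TdLN libraries and 0.330 ± 0.135 in NdLN libraries (SD, n = 5), and did not pass (0.65 ± 0.74 and 1.07 ± 0.75; 1.38 against TdLN without TdLN 4, and called against NdLN at 1.06, adjusted p = 0.0482, when those groups were fitted alone). Exons of an RNA on the other strand, C430014B12Rik, cover 5.65% of its exon bases.

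Types XV and XVIII, which carry the precursors of the angiogenesis inhibitors restin and endostatin, differed from each other. Col18a1 (ENSMUSG00000001435, chromosome 10 from 77052178 to 77166548, minus strand) was at 188, 827, 738, 865 and 684 CPM in Tumor libraries, 513, 466, 442, 309.5 and 505 CPM in TdLN libraries and 781, 749.7, 543, 598 and 537 CPM in NdLN libraries. Of the Tumor libraries, 4 lay above all TdLN libraries and Tumor 1 lay below all others. Its difference against TdLN was 0.56 ± 0.30 (adjusted p = 0.112), and without Tumor 1 it passed, at 0.80 (adjusted p = 0.000484), as it did with limma voom and quality weights (0.70, adjusted p = 0.0182). It did not pass against NdLN (adjusted p = 0.909). Col15a1 (ENSMUSG00000028339, chromosome 4 from 47208161 to 47313167, plus strand) was at 10.9, 19.1, 11.01, 16.8 and 28.6 CPM in Tumor libraries, 41.9, 33.4, 40.7, 43.7 and 44.3 CPM in TdLN libraries and 33.6, 36.9, 67.9, 52.5 and 60.02 CPM in NdLN libraries. The Tumor libraries were below all node libraries. It fell by 1.24 ± 0.26 against TdLN (adjusted p = 0.00071) and by 1.54 ± 0.26 against NdLN (adjusted p = 9.74e-05).

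Type VI collagen, whose beaded filaments link fibrils to cells, split by chain. In both tumor comparisons 3 of 5 tested genes were higher and 1, Col6a4, lower. Over all tested genes 31.9% were higher and 30.1% lower against TdLN, and 34% and 32.5% against NdLN. Col6a4 met the filter on low counts through the node libraries. Col6a1 was at 55.2, 211, 112, 94.0 and 320.2 CPM in Tumor libraries, 3.93, 7.71, 13.96, 11.3 and 9.05 CPM in TdLN libraries and 4.43, 11.2, 8.77, 22.4 and 14.2 CPM in NdLN libraries. Col6a2, on the same strand of chromosome 10, was at 37.5, 153, 67.6, 75.2 and 240.1 CPM in Tumor libraries, 3.35, 4.55, 8.26, 10.1 and 8.99 CPM in TdLN libraries and 3.83, 10.9, 6.36, 9.80 and 11.03 CPM in NdLN libraries. Both were higher in every Tumor library than in any node library, with log2 fold changes of 4.11 ± 0.54 and 4.02 ± 0.51 against TdLN (adjusted p = 9.59e-06 and 7.13e-06) and 3.70 ± 0.53 and 3.77 ± 0.51 against NdLN. Col6a3, the large chain that joins them, rose by 5.30 ± 0.76 (adjusted p = 2.28e-05) against TdLN and 3.86 ± 0.70 (adjusted p = 0.000184) against NdLN. Col6a4, a chain related to Col6a3, was at 0.532, 0.0525, 0.0281, 0 and 0 CPM in Tumor libraries, 16 counts in all. It was at 25.1, 17.7, 47.9, 21.8 and 24.7 CPM in TdLN libraries and 13.6, 10.98, 28.7, 21.1 and 20.8 CPM in NdLN libraries, above every Tumor library. It fell by 8.02 ± 0.76 against TdLN (adjusted p = 3.23e-07) and by 7.49 ± 0.75 against NdLN (adjusted p = 4.78e-07); without Tumor 1 the values were -10.13 and -9.60. Col6a6, also on chromosome 9, did not pass. Its difference was 1.47 ± 1.16 against TdLN (2.24 without TdLN 4, 0.83 without Tumor 2) and -0.96 ± 1.12 against NdLN (-0.07 without NdLN 5, -1.61 without Tumor 2).

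Of the 7 tested FACIT collagens, 3 rose against TdLN, all of type IX, and 3 fell, beside 31.9% of all tested genes higher and 30.1% lower. Col9a1, Col9a2 and Col9a3 had 1, 27 and 8 counts in all TdLN libraries and met the filter on low counts through the Tumor libraries. The rises in this count therefore rest on genes that entered through the group where they are high. Col22a1, which fell, had 104 counts in all Tumor libraries and did not meet the filter through Tumor alone. Col12a1, which coats type I fibrils in dense tissue, was at 16.9, 31.3, 21.2, 14.3 and 26.0 CPM in Tumor libraries, 155, 180.3, 269, 232 and 274 CPM in TdLN libraries and 220.2, 149, 295, 268 and 380.5 CPM in NdLN libraries. Every Tumor library was below every node library. It fell by 3.34 ± 0.28 against TdLN (adjusted p = 8.05e-08) and by 3.58 ± 0.28 against NdLN (adjusted p = 3.44e-08). Col14a1, a related fibril-binding chain, was at 22.0, 45.2, 39.95, 16.7 and 57.3 CPM in Tumor libraries, 52.8, 57.5, 150.5, 116 and 116 CPM in TdLN libraries and 70.7, 44.6, 181, 133 and 139.7 CPM in NdLN libraries. It fell as well (-1.44 ± 0.42, adjusted p = 0.00757 and -1.65 ± 0.42, adjusted p = 0.0029), but Tumor 5 was above the lowest library of both node groups and Tumor 2 above the lowest NdLN library. Col22a1, a chain of the muscle-tendon junction, was at 0.0287 to 1.18 CPM in Tumor libraries, 25.7 to 39.9 CPM in TdLN libraries and 22.2 to 39.1 CPM in NdLN libraries. Its log2 fold change was -5.75 ± 0.50 (adjusted p = 1.22e-07) against TdLN and -5.56 ± 0.49 against NdLN. Col16a1 did not pass against TdLN (-0.24 ± 0.29) and fell against NdLN (-0.87 ± 0.29, adjusted p = 0.0143).

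Of the remaining classes, Col8a1, a chain of the short-chain network of vessel walls and the cornea, was at 18.5, 79.2, 25.6, 44.7 and 46.1 CPM in Tumor libraries, 1.30, 4.05, 9.30, 1.32 and 1.99 CPM in TdLN libraries and 1.91, 1.94, 3.85, 2.34 and 2.65 CPM in NdLN libraries. Tumor libraries stood above all node libraries (3.57 ± 0.56, adjusted p = 5.55e-05 against TdLN and 4.07 ± 0.58, adjusted p = 1.66e-05 against NdLN); against TdLN it was 4.30 without TdLN 3. Col8a2, its partner, was at 1.60, 3.88, 0.674, 2.50 and 2.67 CPM in Tumor libraries, 1.501, 0.177, 0.230, 1.24 and 1.20 CPM in TdLN libraries and 0.351, 2.06, 1.24, 0.488 and 1.89 CPM in NdLN libraries, and did not pass (1.38 ± 0.67 and 0.91 ± 0.66). The transmembrane collagen Col23a1 was at 29.2, 71.4, 21.2, 14.7 and 9.53 CPM in Tumor libraries, 13.0, 14.7, 10.6, 26.2 and 15.7 CPM in TdLN libraries and 13.4, 15.7, 7.75, 7.88 and 3.87 CPM in NdLN libraries. It did not pass against TdLN (0.86 ± 0.49; 0.18 without Tumor 2, 0.25 with limma voom) and rose against NdLN (1.59 ± 0.49, adjusted p = 0.0104), a call that rested on Tumor 2 (0.92, adjusted p = 0.0537 without it).

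Col13a1, a transmembrane collagen of cell contacts, was at 0.614, 1.52, 0.421, 0.833 and 0.811 CPM in Tumor libraries, 1.70, 4.43, 0.403, 3.77 and 2.06 CPM in TdLN libraries and 3.16, 3.91, 4.07, 5.27 and 6.60 CPM in NdLN libraries. It fell against TdLN (-1.55 ± 0.51, adjusted p = 0.0162; -1.24, adjusted p = 0.0519 without TdLN 2) and against NdLN (-2.44 ± 0.53, adjusted p = 0.000756). Col17a1, of the junctions of skin epithelium, stayed at or below 0.958 CPM and did not pass. Col7a1, which forms the anchoring fibrils of skin, was at 0.369, 0, 0.0562, 0.172 and 0.145 CPM in Tumor libraries, 1.67, 0.118, 1.93, 1.16 and 1.14 CPM in TdLN libraries and 2.61, 0.550, 4.81, 5.73 and 3.27 CPM in NdLN libraries. It fell against TdLN (-3.05 ± 0.86, adjusted p = 0.00612; -3.65 without Tumor 1; adjusted p = 0.0828 with limma voom) and against NdLN (-4.54 ± 0.90, adjusted p = 0.000369; -5.15 without Tumor 1). Col26a1 was at 2.05, 2.83, 2.05, 3.68 and 7.24 CPM in Tumor libraries, 0.952, 0.621, 0.144, 0.507 and 0.506 CPM in TdLN libraries and 0.287, 1.13, 0.0283, 0.0326 and 0.988 CPM in NdLN libraries, and rose (2.70 ± 0.81 against TdLN and 2.84 ± 0.82 against NdLN, the second being 4.10 with limma voom). Col28a1 rose against TdLN (5.39 ± 1.39, adjusted p = 0.00339; 9.03 without TdLN 5), where it was at 0 in 4 of 5 TdLN libraries, and did not pass against NdLN (1.85 ± 1.12).

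The Tumor libraries differed widely among themselves in collagens. Of the 28 collagen genes with a mean of at least 1 CPM in Tumor libraries, 21 were lowest in Tumor 1 and 16 highest in Tumor 5. The highest library exceeded the lowest by 24.6 times for Col1a1, 9.13 times for Col3a1 and 7.71 times for Col1a2, with a median of 4.53 times over the 28 genes. The spread was smaller for Col2a1 (2.49 times), Col9a3 (1.496 times) and Col9a1 (1.16 times). Over the marker lists the same median was 4.19 times for 12 fibroblast genes, 1.92 times for 10 lymphatic genes and 1.70 times for 9 pigment cell genes. Tumor 1 was lowest for 4 of these fibroblast genes, 6 of the lymphatic genes and 1 of the pigment cell genes. Tumor 5 was highest for 5, 1 and 6 of them. Tumor 1 was also the library with the fewest counts; the part of depth in its low collagen levels was not tested. Without Tumor 1 the log2 fold change against TdLN was 6.16 for Col1a1 and 5.79 for Col3a1, and without Tumor 5 it was 5.39 and 5.08.

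**Figure D5:**
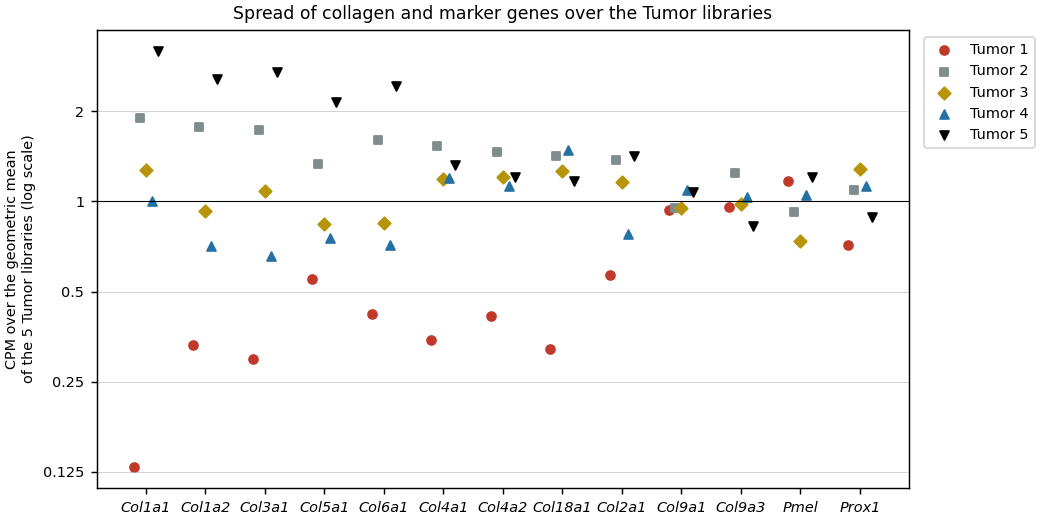
CPM of 11 collagen genes, of Pmel (pigment cell marker) and of Prox1 (lymphatic marker) in each Tumor library, over the geometric mean of the 5 Tumor libraries (log scale, y axis). Tumor 1 is lowest and Tumor 5 highest for Col1a1, Col1a2 and Col3a1, while Col9a1 and Pmel vary by 1.16 and 1.63 times between the lowest and highest library.

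The markers of other cell types were read beside the collagens. The 9 measured pigment cell genes, high in Tumor libraries as given above, summed to 12.0 to 33.2 CPM in TdLN libraries and 17.8 to 37.8 CPM in NdLN libraries, and all 9 rose in Tumor against both nodes. The counts over marker lists stand beside the 62% of all tested genes called in Tumor against TdLN (31.9% higher, 30.1% lower). Some genes of these lists met the filter on low counts only through the Tumor libraries, where they are high. Sox10 and Oca2 of the pigment cell list had 0 to 6 and 0 to 10 counts per node library. Lrrc15 of the fibroblast list and Adgre1 of the macrophage list had 0 to 2 and 0 to 4. Of 11 tested fibroblast genes, 9 rose against TdLN, Postn fell and Thy1 did not pass. Postn made up most of the list's sum in the nodes. Without it, a choice made after seeing its level, the list summed to 311 to 615 CPM in Tumor libraries, 49.3 to 80.5 CPM in TdLN libraries and 64.8 to 106.7 CPM in NdLN libraries. With Postn the sums were 409 to 855 CPM in Tumor libraries, 856 to 1567 CPM in TdLN libraries and 1005 to 1934 CPM in NdLN libraries. Macrophage genes summed to 203 to 349 CPM in Tumor libraries, 87.0 to 180.5 CPM in TdLN libraries and 49.8 to 134.5 CPM in NdLN libraries, with 8 of 9 higher in Tumor than in TdLN. Genes of pericytes and smooth muscle summed to 60.6 to 136.6 CPM in Tumor libraries, 120.0 to 199 CPM in TdLN libraries and 71.4 to 180.0 CPM in NdLN libraries. Rgs5 made up most of this sum in TdLN libraries, at 79.4 to 163.8 CPM, and was at 0.246 to 2.58 CPM in Tumor libraries. The sum therefore follows Rgs5 more than the other genes of the list. Of 8 tested, 3 rose (Acta2, Cspg4 and Tagln) and 2 fell (Myh11 and Rgs5) against TdLN, a share close to the 62% over all genes. Leukocyte genes summed to 7.30 to 12.6 CPM in Tumor libraries, 1.501 to 6.45 CPM in TdLN libraries and 1.56 to 23.2 CPM in NdLN libraries. The part of these cells in the collagen levels was not tested.

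Markers that were higher in the nodes stand beside the collagens that fell in Tumor libraries. Fibroblastic reticular cell genes summed to 17.1 to 56.5 CPM in Tumor libraries, 914 to 1242 CPM in TdLN libraries and 581 to 1111 CPM in NdLN libraries. Madcam1 alone made up most of the node sums, at 808 to 1075 CPM in TdLN libraries and 418 to 899 CPM in NdLN libraries. Ccl19 was at 2.92 to 7.40 CPM in TdLN libraries, so the sum says little about the other genes of the list. Of the 7, 5 fell against TdLN. Grem1 was at 0 in all Tumor libraries and met the filter on low counts through the nodes. Blood endothelial genes summed to 607 to 1226 CPM in Tumor libraries, 3250 to 7490 CPM in TdLN libraries and 3117 to 6211 CPM in NdLN libraries; 4 of 9 fell and 2 rose against TdLN, also close to the 62% over all genes. The lymphatic sum, lower in all Tumor libraries than in any node library, was 7269 to 8755 CPM in TdLN libraries and 8090 to 10663 CPM in NdLN libraries. The lymphatic genes did not move together. Against TdLN 5 of the 10 fell (Klhl4, Lyve1, Mmrn1, Pecam1 and Prox1). Ccl21a and Reln rose, and Flt4, Pdpn and Tbx1 did not pass, so the share called was again close to the background. Prox1 was at 73.5 to 132 CPM in Tumor libraries and 441 to 625 CPM in TdLN libraries. Pecam1, whose product was used in the sort, was at 133 to 340 CPM in Tumor libraries and 1074 to 1282 CPM in TdLN libraries. Ccl21a, which encodes a chemokine made by lymphatic endothelium and node stroma, was at 817 to 1566 CPM in Tumor libraries and 60.1 to 237 CPM in TdLN libraries (log2 fold change 3.18 ± 0.37, adjusted p = 2.85e-06). None of the 10 lymphatic markers was at 0 in all libraries of a group. The part of these cell types in the fallen collagens was not tested.

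In TdLN against NdLN no collagen passed edgeR's test, and 5 had an unadjusted p under 0.05 (Col11a2, Col16a1, Col28a1, Col4a5 and Col6a3). All 5 were lower in TdLN libraries, beside 9.15% of all tested genes lower at that unadjusted threshold. The 5 of 39 are thus near the background. DESeq2 called 1 of 39 lower (Col11a2; 3.66% of all genes) and voom 1 lower (Col4a5; 3.52% of all genes). No TdLN library overlapped the NdLN libraries for Col4a5, Col18a1, Col16a1 and Col5a1, and all 4 were lower in TdLN, beside 4.95% of all tested genes without overlap and lower in TdLN. The difference of Col4a5 was -0.67 ± 0.31 (adjusted p = 0.275), and it was called without Tumor 1 (-0.67, adjusted p = 0.0198), with voom (-0.64, adjusted p = 0.0185) and when TdLN and NdLN were fitted alone (-0.66, adjusted p = 0.0236). Col16a1 was at 28.1, 31.9, 30.2, 38.7 and 30.4 CPM in TdLN libraries and 44.6, 39.0, 51.6, 52.2 and 59.4 CPM in NdLN libraries (-0.63 ± 0.29, adjusted p = 0.267; called at 0.0248 when those groups were fitted alone). The differences of Col18a1 and Col5a1 were -0.52 ± 0.30 and -0.54 ± 0.28. The median was -0.54 over fibrillar and -0.41 over basement membrane genes, beside -0.01 over all tested genes. Some marker genes moved in the same comparison. The blood endothelial genes Emcn (-1.22 ± 0.23, adjusted p = 0.01), Flt1 (-1.81 ± 0.45, adjusted p = 0.0393) and Vwf (-1.44 ± 0.28, adjusted p = 0.0118) were lower in TdLN than in NdLN libraries. They were 3 of 9 of their list, beside 1.64% of all tested genes called lower. The lymphatic gene Lyve1 (0.78 ± 0.18, adjusted p = 0.0288) and the macrophage gene Mrc1 (1.19 ± 0.31, adjusted p = 0.0482) were higher. These were 1 of 10 and 1 of 9 of their lists, beside 1.84% of all tested genes called higher. The 6 tested leukocyte genes had a median of -1.82 with 0 called. The part of these cells in the lower collagen levels of TdLN was not tested.

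Genes that make, process, link and bind collagen were read from 4 lists. Of 18 genes of chain hydroxylation and folding, 7 rose and 2 fell in Tumor against TdLN, a smaller share than the 62% of all tested genes called there. Plod3, a lysyl hydroxylase and glycosyltransferase, was at 109 ± 8.64 CPM in Tumor libraries and 278 ± 29.8 CPM in TdLN libraries (SD, n = 5; -1.35 ± 0.09, adjusted p = 7.08e-09). Plod2, the hydroxylase of telopeptide lysines, was at 86.1 ± 16.0 CPM in Tumor libraries and 9.16 ± 1.87 CPM in TdLN libraries (3.23 ± 0.24, adjusted p = 2.09e-08). Colgalt2, a collagen galactosyltransferase, fell by 3.88 ± 0.31, and Fkbp14, a prolyl isomerase, rose by 1.07 ± 0.12. The collagen chaperone gene Serpinh1 did not pass.

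Of 16 secretion and propeptide cleavage genes 13 were tested, and 4 rose and 3 fell, also a smaller share than the 62%. Pcolce, the enhancer of procollagen C-proteinase, was at 456 ± 118 CPM in Tumor libraries and 23.0 ± 5.79 CPM in TdLN libraries (4.31 ± 0.28, adjusted p = 5.71e-09). Tll1, a proteinase of that kind, fell by 4.14 ± 0.68, Sec31a, a coat protein of secretory vesicles, fell by 0.72 ± 0.12, and its partner Sec13 rose by 0.68 ± 0.12. Of 13 crosslinking and fibril-regulating genes, 9 rose and 2 fell, beside 31.9% of all genes higher and 30.1% lower. Among them Loxl1, a lysyl oxidase, rose by 6.20 ± 0.76, Lum, a proteoglycan of fibrils, by 4.90 ± 0.96, Fn1 (fibronectin) by 1.04 ± 0.26 and Loxl3 by 0.87 ± 0.14. Against NdLN 5 of the 13 rose and 3 fell, beside 34% of all genes higher and 32.5% lower, and Fn1 did not pass (0.31 ± 0.26, adjusted p = 0.295).

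Of the 10 collagen receptor and uptake genes, 8 were tested, and 3 rose and 2 fell against TdLN, close to the 62% background. Itga1, the alpha chain of an integrin receptor that binds type IV collagen, was at 12.9 ± 2.96 CPM in Tumor libraries and 99.8 ± 17.8 CPM in TdLN libraries (-2.95 ± 0.19, adjusted p = 3.42e-09). Itga2, of an integrin that binds type I, fell by 3.20 ± 0.42. Ddr1, a receptor kinase for collagen, rose by 2.56 ± 0.30, and Mrc2, which takes up collagen fragments, by 5.05 ± 0.97. None of the tested genes of the 4 lists passed in TdLN against NdLN.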

How the data were processed

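Per the labels, RNA of sorted cells (1 ng) was amplified with a SMARTer kit, 200 pg of cDNA was made into libraries and pools of 10 were read as single 50-base reads. The tools listed in the submitters' processing notes are featureCounts 1.4.6, STAR 2.4 and CASAVA 1.8.2, and the build is GRCm38. Which annotation was counted, and whether counting used strand, is not given in the sources used here. The authors deposited whole-number counts per gene, with no normalization. Nothing says that libraries came from separate animals, so p-values measure only the spread between these libraries.

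Of 21839 gene IDs, 21628 matched GENCODE M21. All 15 libraries entered 1 robust edgeR 4.0.16 quasi-likelihood fit (R 4.3.3, TMM, filterByExpr with a minimum count of 10). The p-values were adjusted by Benjamini-Hochberg over 13887 genes, with a threshold of 0.05. A prior count of 2 entered only the log2 CPM used to compare libraries, not the fit. The fit was tested on simulated counts. DESeq2 1.42.0, limma 3.58.1 voom, other scalings and filters, fits of 2 groups, a replicate block and leaving out each library were the alternatives. Counting intervals are at 95%. Values in every library are given for fibrillar and basement membrane members with a mean of at least 1 CPM in a group and the 2 most abundant members of each other class; of each pathway list, the 4 smallest adjusted p-values are named. Members, lists and rules were chosen with earlier results of these data known. Promoter windows are RefSeq's (GRCm38.p6).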

Additional observations from a re-analysis of the deposited data

Results flagged for a closer look

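Of 123 sets of 5 libraries examined (each of the 39 tested collagens and 2 class sums in each group), 15 had a library far from the other 4 by Dixon's criterion. For normally distributed values chance gives this in about 1 of 20 sets. That rate need not hold for skewed CPM, and a set with 4 libraries at 0 and 1 with a count always meets the criterion. The class sums also share genes with single members, so the 15 are not read as an excess. Tumor 1 was low for Col18a1 (187.6 CPM, others 684 to 865 CPM), for Col4a1 (231 CPM, others 799 to 1029 CPM) and for the summed basement membrane collagens (613 CPM, others 2081 to 2520 CPM). Tumor 5 was high for Col4a4 (5.68 CPM, others 2.09 to 2.96 CPM), Tumor 2 for Col4a6 (0.184 CPM, others 0 to 0.0410 CPM) and Tumor 1 for Col6a4 (0.532 CPM, others 0 to 0.0525 CPM). TdLN 1 was high for Col11a2 (0.462 CPM, others 0.0316 to 0.0863 CPM), TdLN 2 for Col5a3 (4.14 CPM, others 0.374 to 1.42 CPM) and TdLN 3 for Col6a4 (47.9 CPM, others 17.7 to 25.1 CPM). In TdLN libraries Col11a1 and Col28a1 were found in TdLN 5 alone (0.538 and 0.221 CPM, others 0 CPM) and Col9a1 in TdLN 4 alone (0.0282 CPM, others 0 CPM). NdLN 1 was low for Col1a2 (4.43 CPM, others 36.4 to 47.0 CPM). NdLN 5 was high for Col6a6 (4.74 CPM, others 0.391 to 1.16 CPM), and Col9a1 was found in NdLN 3 alone (0.0283 CPM, others 0 CPM).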

How the results depend on the processing

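Of 1832 alternative values of 81 selected log2 fold changes of collagens, 0 were reversed and 1802 kept their direction and side of the threshold. Of the rest, 18 gained a call and 12 lost one, in 12 of the 81 results. The selection left out Col17a1 in both tumor comparisons and Col18a1 and Col4a2 in Tumor against NdLN. It also left out most collagens in TdLN against NdLN, Col18a1 and Col5a1 among them. Reversals and changed calls among those left out are not in these counts. Requiring at least 10 CPM in 5 libraries left fewer genes and gave 12 collagens higher and 7 lower in Tumor against TdLN, beside 6448 genes called. The numbers of genes and collagens tested under that filter are not given here, so these counts have no share beside them. The fibrillar medians were then 5.53 against TdLN and 5.21 against NdLN, and the basement membrane median was -0.97 against NdLN. The fibrillar median of Tumor against NdLN was 4.03 with limma voom and 4.75 with the replicate block, because the median gene, Col11a1, took those values. In TdLN against NdLN the main fit called 484 genes and 0 collagens. DESeq2 called 972 genes and 1 collagen, and limma voom 817 genes and 1 collagen. The fit of these 2 groups alone called 698 genes and 3 collagens, Col4a5 and Col16a1 among them. The genes are counted in both directions, and the collagens called were all lower. The cause of these differences was not tested. Leaving out each library gave 8207 to 8696 genes called in Tumor against TdLN, 8870 to 9495 in Tumor against NdLN and 225 to 741 in TdLN against NdLN. The collagens higher were 18 to 20, 16 to 19 and 0 to 0 in that order, and those lower 10 to 12, 12 to 12 and 0 to 1. Fibrillar medians were 4.08 to 4.75, 2.88 to 4.20 and -0.59 to -0.34, and basement membrane medians -0.70 to -0.32, -0.34 to 0.03 and -0.44 to -0.34. Same-numbered libraries did not deviate together (r -0.21 to 0.25), and 0, 2 and 1 of 5 libraries correlated best with their own number. Deviations of 5 libraries per group from different tissues cannot exclude a shared animal, so whether the numbers pair libraries stays unknown. With the replicate block 8381, 8995 and 400 genes were called. Few reads lie behind some tested members, such as Col9a1 (1 count in each node group), Col2a1 (3 counts in TdLN, 4 in NdLN), Col28a1 (7 counts in TdLN) and Col4a6 (9 counts in Tumor).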
